A study of Mus musculus with 10 samples.

Results

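The sites described here are CG positions on the autosomes at which 5-carboxylcytosine (5caC) was listed in wild-type mouse embryonic stem cells grown in serum-2i and in none of the other 3 groups of the study's coverage table. There were 53031 of them, which is 48.1% of the 110315 autosomal sites of the serum-2i wild-type (wt) group (exact 95% interval 47.8 to 48.4) and 5.80% of the 914758 autosomal positions listed in any group. They were chosen by the measured listing in each group, so their absence from the other groups, and every value of coverage or listing in the same table, is a description and not a test.

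The study mapped 5caC to single CGs in the genome of mouse embryonic stem cells, grown without feeder cells in serum medium with LIF. The 4 listed groups were wt cells in serum, wt cells in serum-2i, cells labelled Tdg in serum and cells labelled Tdg in serum-2i; the labels name the gene Tdg without the kind of alteration, and give no strain, clone or sex. Serum-2i adds to this medium CHIR99021 at 3 µM, which blocks the kinase GSK3, and PD0325901 at 1 µM, which blocks MEK. The negative control was DNA from a triple Tet knockout in serum. The labels say that it went into the making of the coverage table; no entry carries its name, so the background level is not analysed here.

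5caC is the last of the oxidised forms that the TET dioxygenases make from 5-methylcytosine. Thymine DNA glycosylase, the product of Tdg, cuts 5caC out, and base excision repair then puts an unmodified cytosine in its place. Loss of the glycosylase is known to let 5caC build up in embryonic stem cells, and inhibition of GSK3 and MEK is known to move these cells toward a naive state with low DNA methylation. In the assay, unmodified CGs and 5-hydroxymethylcytosine are blocked, an engineered SssI methyltransferase removes the carboxyl group of 5caC and attaches a tag, and tagged fragments are enriched on beads and sequenced.

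Each group had 2 technical replicates, and the table gave 1 value per site and group, a coverage in steps of 0.5, taken here as a mean over the replicates. No spread between replicates or cultures could therefore be computed, no test across samples was possible, and no p-value is given. The intervals below are exact Clopper-Pearson 95% intervals; they cover counting error only, and since neighbouring CGs can share reads, and amplified reads carry no molecular identifiers that would separate copies of one molecule, they are too narrow. Coverage summed over all sites was 890158.5 in serum-2i wt cells, against 12348368 in serum-2i Tdg cells (13.9 times as much), 7486660 in serum Tdg cells (8.41 times) and 43172 in serum wt cells. The table listed a site from a mean coverage of 4 upward in serum-2i wt cells, 6 in either Tdg group and 3 in serum wt cells. A site that is not listed in a group has an unknown value there, not 0.

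Sequences were at hand for promoter windows only, from a RefSeq table of the assembly GRCm38.p6, which is the build mm10 of the coverage table. The 4 windows below are those with 2 sites of serum-2i wt cells alone, the most found, within the 250 bases before the gene's outermost listed start, among the promoters considered for printing. They show what the base-resolution measurement looks like. Letters are lower case, 5′ to 3′ on the gene's strand, and capitals mark each CG at which 5caC was listed in serum-2i wt cells alone.
1810013A23Rik, chr17:28271458-28271707 (+): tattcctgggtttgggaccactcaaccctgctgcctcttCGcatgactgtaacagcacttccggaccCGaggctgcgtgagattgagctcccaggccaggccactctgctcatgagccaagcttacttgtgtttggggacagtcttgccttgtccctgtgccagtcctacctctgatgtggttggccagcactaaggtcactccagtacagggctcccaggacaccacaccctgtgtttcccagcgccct
Adh1, chr3:138277335-138277584 (+): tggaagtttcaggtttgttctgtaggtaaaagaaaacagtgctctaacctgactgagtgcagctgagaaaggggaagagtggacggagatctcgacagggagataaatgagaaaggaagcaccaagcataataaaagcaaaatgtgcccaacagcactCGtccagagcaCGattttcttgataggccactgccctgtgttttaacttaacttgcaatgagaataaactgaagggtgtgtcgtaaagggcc
Gm43915, chr6:120958594-120958843 (+): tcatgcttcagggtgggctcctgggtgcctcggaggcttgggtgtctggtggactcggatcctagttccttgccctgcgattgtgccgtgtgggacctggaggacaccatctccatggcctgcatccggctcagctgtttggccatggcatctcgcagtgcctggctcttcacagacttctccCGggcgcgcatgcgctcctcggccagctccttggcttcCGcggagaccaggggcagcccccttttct
Spaar, chr4:43729784-43730033 (+): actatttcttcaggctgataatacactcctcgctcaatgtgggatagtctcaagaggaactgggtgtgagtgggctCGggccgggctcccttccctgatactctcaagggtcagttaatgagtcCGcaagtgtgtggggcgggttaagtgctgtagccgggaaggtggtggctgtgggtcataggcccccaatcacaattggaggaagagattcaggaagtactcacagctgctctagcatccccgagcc

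The promoter of Adh1, a class I alcohol dehydrogenase, had listed coverage of 6 and 5.5 at its marked CGs, which lie 92 and 81 bases before the start. The window of 1810013A23Rik, inside the span of the nuclear receptor gene Ppard, had 10 and 5.5. That of Gm43915, inside the span of Mical3, had 5 and 6. None of these 3 windows held a listed site of either Tdg group, and the remaining CGs in them (3 of 5, 3 of 5 and 11 of 13) were not listed in serum-2i wt cells. Spaar, which encodes a small polypeptide that regulates the amino acid response, had 5.5 at both marked CGs and 7 CGs in all. At other CGs of the Spaar window, serum-2i Tdg cells had 2 listed sites and serum Tdg cells 1. Apart from the value of 10, these values lie at 6 or below, near the minimum of 4.

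The sites had low coverage. The lowest was 4, the lower quartile 5.5, the median 7, the upper quartile 9 and the highest 35. The 54242 autosomal sites listed in both serum-2i wt and serum-2i Tdg cells, which serve as the comparison set below, had a median of 7.5, quartiles of 6 and 10 and a highest value of 100.5 in the same serum-2i wt libraries. At the edge of the listing, 2393 of the sites (4.51%) stood at exactly 4 and 3887 (7.33%) at 4.5. In all, 15884 (29.95%) lay below 6, the minimum of the Tdg groups. On the other side of the selection, 484 sites listed in both serum-2i groups stood at the Tdg minimum of 6 in Tdg cells and 864 at 6.5, or 0.892% and 1.59% of them; their median there was 17.5 (quartiles 11 and 31). The sites carried 44.7% of the summed autosomal coverage of serum-2i wt cells.

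The more coverage a serum-2i wt site had, the more often another group listed it too. Of the 11003 sites with coverage from 4 to under 5, 57.1% (56.1 to 58.0) were listed in serum-2i wt cells alone. The share was 46.7% (46.1 to 47.4) from 8 to under 10, 27.2% (25.8 to 28.7) from 15 to under 20, and 3.91% (1.28 to 8.88), 5 of 128 sites, from 30 upward. In the same classes, serum-2i Tdg cells listed 40.1%, 50.4%, 70.3% and 95.3% of the sites. Among the sites of serum-2i wt cells alone, 8736 had at least 10, 1193 at least 15 and 200 at least 20. The share listed in 1 group alone was 65.6% in serum-2i Tdg cells, 45.9% in serum Tdg cells and 34.0% in serum wt cells.

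**Figure D1:**
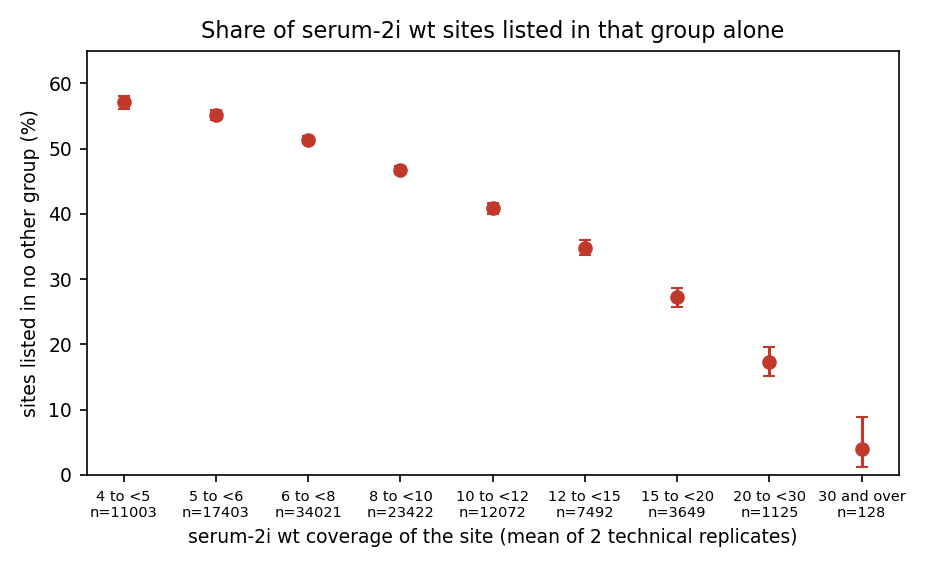
Share of autosomal serum-2i wt sites that were listed in no other group (%), by the coverage of the site in serum-2i wt cells; points are shares, bars exact 95% intervals for counting error, and n the sites in each class. The share goes from 57.1% in the lowest class to 3.91% in the highest.

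Within 1 kb of each of the 8 sites with the highest coverage there were at most 4 serum-2i wt sites, the site itself included. All but those in Sh3rf1 (7869 bp) and Fbxw9 (1642 bp) had another serum-2i wt site within 1 kb. Of all the sites of serum-2i wt cells alone, 31.6% had one within 1 kb, and the median distance was 2471 bp. The highest value, 35, was at chr7:100010066-100010067 inside Chrdl2, which encodes a chordin-like BMP antagonist; the nearest serum-2i Tdg site lay 338 bp away with a coverage of 10.5. Fam234b (chr6:135219520-135219521) followed with 34.5, and the nearest serum-2i Tdg site there, 106 bp away, had 11. Sh3rf1, a ubiquitin ligase and signalling scaffold, had 31 at chr8:61361656-61361657 with no serum-2i Tdg site within 10 kb (nearest 11909 bp). A site 269 bp outside Prok2, the gene of the secreted peptide prokineticin 2, had 30.5 at chr6:99711030-99711031, with a serum-2i Tdg site of coverage 7.5 28 bp away. A site in no gene span (chr2:171306043-171306044, 426268 bp from Dok5, the nearest protein-coding gene) had 30, with a serum-2i Tdg site of 11.5 at 19 bp. Tpcn1, an ion channel of endosomes and lysosomes, had 29 (chr5:120565869-120565870). Fbxw9, an F-box protein, had 28.5 (chr8:85066167-85066168) and its nearest Tdg site, in both media, lay 3962 bp away. Esrrg, an orphan nuclear receptor of the estrogen-related family, had 27.5 (chr1:187666027-187666028). There a serum-2i Tdg site 27 bp away reached 47.5, the highest of these neighbours. The neighbours of these sites thus ranged from close and well covered to far away.

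Most of the sites had a serum-2i Tdg site in the neighbourhood, but less often at close range than sites that both genotypes shared. The nearest serum-2i Tdg site lay at a median distance of 509 bp (quartiles 120 and 1632), against 91 bp (29 and 531) from a shared site to the nearest other one. It lay within 100 bp for 23.0% of the sites (22.6 to 23.3) against 51.8% of shared sites (51.4 to 52.2), within 1 kb for 64.6% against 82.8%, and within 10 kb for 96.9% against 98.7%. Sites of serum-2i Tdg cells alone had another within 100 bp in 50.2% of cases and within 1 kb in 82.1%, close to the shared sites. The number of serum-2i Tdg sites within 1 kb on either side, the position itself not counted, averaged 2.11 for sites of serum-2i wt cells alone and 3.43 for shared sites, and was 0 for 35.4% and 17.2%. This measure uses the Tdg listing, as the selection did, though not at the position itself, so it describes the neighbourhood and is not independent of the selection.

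The difference was of similar size at each level of coverage. Among sites with serum-2i wt coverage under 6, 22.7% of those listed alone and 52.4% of the shared ones had a serum-2i Tdg site within 100 bp. From 6 to under 9 it was 22.8% and 51.6%, from 9 to under 15 it was 23.5% and 51.7%, and from 15 upward 24.0% and 51.9%. The median coverage of the sites was 6.5 at a distance of up to 10 bp (896 sites) and 7 over 10 and up to 100 bp. It was 7 from there up to 1 kb, 7 up to 10 kb and 6.5 beyond 10 kb (1621 sites). With serum Tdg cells the order was the same: 8.20% of the sites had a serum Tdg site within 100 bp against 23.4% of the shared sites. Serum wt sites, few in all, lay within 10 kb of 16.0% and 18.8%.

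**Figure D2:**
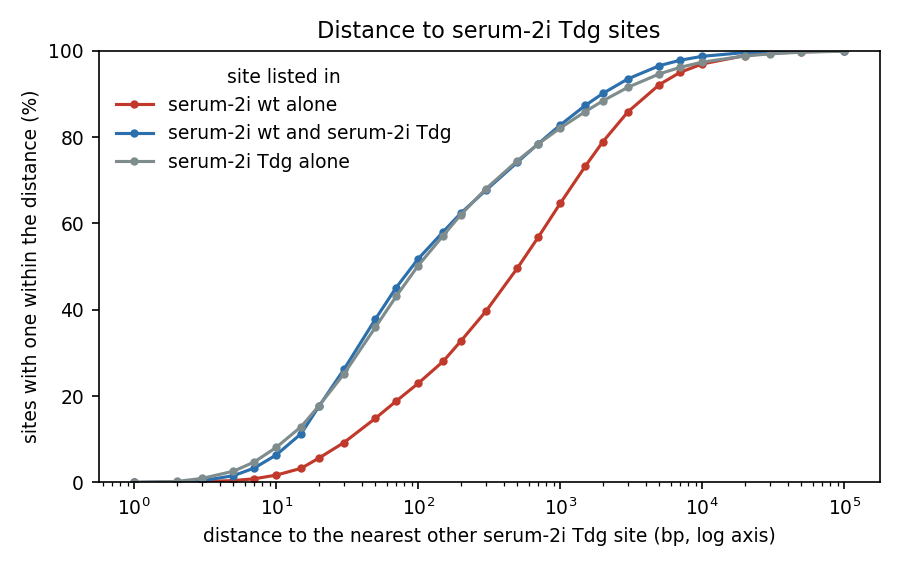
Cumulative share of sites (%) with another serum-2i Tdg site within the distance on the x axis (bp, log axis), for sites of serum-2i wt cells alone, sites listed in both serum-2i groups and sites of serum-2i Tdg cells alone. The curve for serum-2i wt cells alone runs below the others, 23.0% against 51.8% and 50.2% at 100 bp, and they meet at long range.

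The sites lay close to one another less often than the shared sites did. Another site of serum-2i wt cells alone lay within 100 bp for 4.32% of them (4.15 to 4.499) and within 1 kb for 17.9%, at a median distance of 5595 bp. For shared sites, which are about as many, the shares were 10.2% and 26.4% and the median 4201 bp. Runs, meaning 3 or more sites with no gap over 100 bp, numbered 41 with 124 sites (0.234%), against 248 runs with 787 sites (1.45%) among shared sites. The longest held 4 sites in 171 bp of Dlgap4 (chr2:156625408-156625578), a scaffold protein of synapses. The next by summed coverage held 3 sites each, in Lipc, the hepatic lipase (chr9:70823381-70823439), Nol3, an apoptosis repressor (chr8:105279699-105279717), Tanc1, a synaptic scaffold (chr2:59800096-59800189), and Tmem208 where its span overlaps that of Fhod1 (chr8:105330108-105330183). A run in Golga4, a Golgi protein (chr9:118569718-118569790), had the same summed coverage as the last 2 of these, 29. The Nol3 run had no serum-2i Tdg site within 1 kb but 12 serum Tdg sites. The Tanc1 run had 6 serum-2i Tdg sites and none of serum Tdg cells.

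By place in the genome the sites resembled the shared ones. Inside protein-coding spans lay 62.0% of them (61.6 to 62.4), against 60.3% (59.9 to 60.7) of shared sites and 55.6% (55.4 to 55.7) of sites of serum-2i Tdg cells alone; such spans cover 40.3% of the autosomal length. At most 1 kb from either end of a protein-coding span lay 5.10%, 5.05% and 4.32%, where 3.06% of the length lies. Long non-coding RNA spans outside protein-coding genes held 6.95%, 7.30% and 7.97%, about their share of the length (7.01%). In no gene span lay 30.3%, 31.7% and 35.7% against 51.3% of the length, and over 50 kb from a protein-coding span 12.2%, 11.6% and 16.6% against 35.8%. Gene length classes were alike too: of the sites in protein-coding spans, 41.6% and 41.2% lay in spans over 100 kb, against 49.1% of the sites of serum-2i Tdg cells alone.

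**Figure D3:**
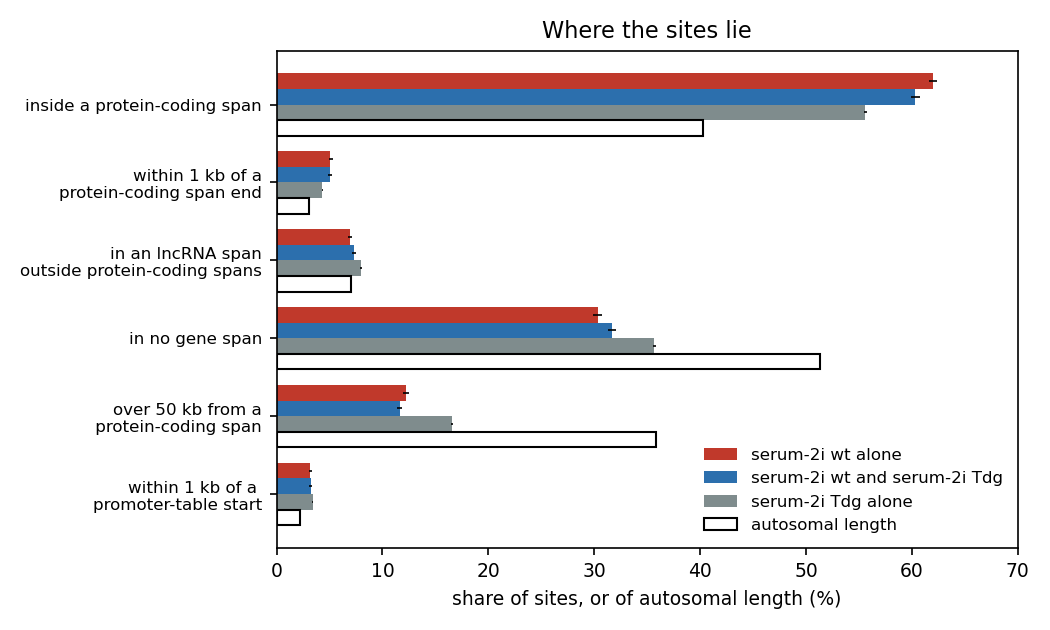
Share of sites (%) in 6 classes of place for sites of serum-2i wt cells alone, sites of both serum-2i groups and sites of serum-2i Tdg cells alone, with the share of autosomal length as open bars; black lines are exact 95% intervals for counting error. Protein-coding spans hold 62.0%, 60.3% and 55.6% of the sites and 40.3% of the length; classes overlap.

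Within genes the sites became denser toward the end of the span. The spans of 10548 protein-coding genes over 10 kb, those with 1 strand in the promoter table, were cut into 10 equal parts from start to end. Part 1 held 7.41% of the sites in these spans, part 5 held 9.51%, part 6 held 9.81% and part 10 held 14.0%. Shared sites went from 7.60% in part 1 to 13.7% in part 10, and sites of serum-2i Tdg cells alone from 8.83% to 11.8%. The surroundings of promoter starts held a small share of the sites, but more than their share of the length. Within 1 kb of a start in the promoter table lay 3.17% of the sites (3.02 to 3.32), where 2.18% of the length lies. The same regions held 3.24% of shared sites and 3.40% of sites of serum-2i Tdg cells alone. Relative to the share of the length, the 3 sets stood at 1.455, 1.49 and 1.564 times.

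Of 31396 autosomal promoter windows of 300 bases, 277 (0.882%) held a site of serum-2i wt cells alone, in 266 genes. Of these 277 windows, 144 (52.0%) had no site of either Tdg group. Among all windows, 4054 (12.9%) held a serum-2i Tdg site, so lacking one is common to most windows. That share leaves out serum Tdg sites and is not the background of the 52.0%. The share of all windows without a site of either Tdg group is not given here. In 11 of the 277 windows there were 2 sites of serum-2i wt cells alone, the most found. The windows held a median of 7 CGs (quartiles 5 and 9), like the median of 7 over all windows, whose upper quartile was 21. CG-rich windows with at least 15 CGs made up 35.2% of all windows but 6.86% of those with such a site, 2.90% of those with a shared site and 10.7% of those with any serum-2i Tdg site. Listed 5caC thus lay mostly in windows of few or moderately many CGs in all these sets.

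The bases beside the CG differed between these sites and those that serum-2i Tdg cells listed. The motif searched was GCG, a G directly before the CG on at least 1 of the strands, in windows with fewer than 15 CGs; the motif and the limit of 15 were chosen after the values were seen, and GCG is present somewhere on either strand in 81% of all 31396 windows. It was present at 111 of 255 sites of serum-2i wt cells alone (43.5%, 37.4 to 49.9). Among sites of both serum-2i groups it was present at 85 of 356 (23.9%, 19.5 to 28.7), and at 24.0% of 2947 sites of serum-2i Tdg cells alone. CGs listed in no group had it in 48.7% of 78847 cases. Listed sites were not uniformly low: at sites of serum Tdg cells alone the share was 36.1% of 3612 (34.5 to 37.6), and its interval overlaps that of the sites of serum-2i wt cells alone. Inside the very windows that held such a site, it was 44.2% at these sites (121 of 274), 51.7% at unlisted CGs and 26.9% at sites of serum-2i Tdg cells alone (39 of 145).

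The share with GCG was the higher at sites of serum-2i wt cells alone in each class of coverage. Under 6 it was 40.9% at sites of serum-2i wt cells alone (36 of 88) and 24.1% at shared sites (19 of 79), with overlapping intervals. From 6 to under 9 it was 38.1% and 26.4%, also with overlapping intervals. From 9 upward it was 54.3% (38 of 70, 41.9 to 66.3) and 20.2% (23 of 114, 13.2 to 28.7). By the 4 bases around the CG, strands pooled, CCGC was found at 19.6% of the sites of serum-2i wt cells alone, 8.43% of shared sites and 18.8% of unlisted CGs, and GCGC at 9.80%, 5.06% and 7.47%. CCGA went the other way, with 9.02%, 19.4% and 11.6%. CCGG was frequent in both listed sets, at 18.8% and 23.9%, against 8.63% of unlisted CGs. On either strand, 63.7% of all promoter windows hold CCGC, 47.5% GCGC, 57.8% CCGA and 53.5% CCGG; CCGC and GCGC both contain GCG. These figures rest on promoter windows alone, which held 275 of the 53031 sites.

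The density of the sites was 21.7 per Mb over the autosomes. Chromosome 11 had the highest, 35.8 per Mb or 1.65 times the autosomal mean, followed by chromosome 8 with 29.1 (1.34 times) and chromosome 19 with 28.0 (1.29 times). Chromosomes 3 (0.654 times), 14 (0.720) and 1 (0.758) had the lowest. Shared sites showed nearly the same order, with 1.77 times on chromosome 11 and 1.29 on chromosome 8. Sites of serum-2i Tdg cells alone stood at 1.36 on chromosome 11 and 1.04 on chromosome 8. As a share of all serum-2i wt sites, the sites listed there alone varied little between chromosomes, from 45.9% on chromosome 11 (44.9 to 46.9) to 50.4% on chromosome 18 (48.7 to 52.2). The number of copies of each chromosome in the cultures is not known here, and its part in the density was not tested.

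**Figure D4:**
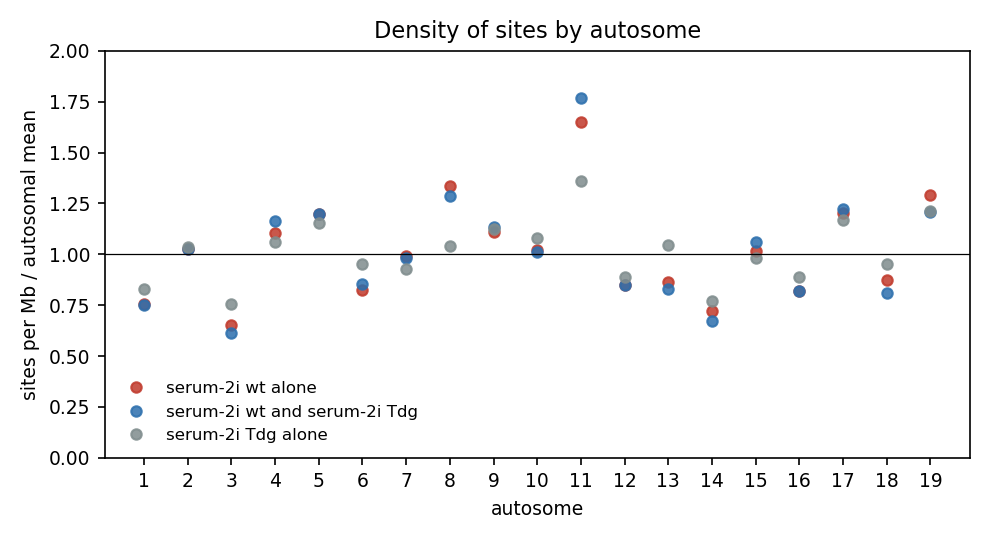
Sites per Mb on each autosome, divided by the autosomal mean of the same set, for sites of serum-2i wt cells alone, sites of both serum-2i groups and sites of serum-2i Tdg cells alone; 1 point per chromosome. On chromosome 11 the values are 1.65, 1.77 and 1.36, and on chromosome 8 they are 1.34, 1.29 and 1.04.

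In windows of 100 kb, 13142 windows held at least 1 of the sites, with a median of 3 and a maximum of 31. The fullest window, on chromosome 11 from 118000000, covers parts of Dnah17, an axonemal dynein, and Pgs1; it held 31 of the sites among 60 serum-2i wt sites and 257 serum-2i Tdg sites. Next came a window on chromosome 17 from 27100000 with 28 sites (Itpr3, an inositol trisphosphate receptor, Ip6k3, Lemd2 and Uqcc2). Windows with 23 sites lay on chromosome 12 (Itpk1 and Chga) and on chromosome 8 (Fanca, Spire2 and Tcf25; and Sipa1l2). Of the windows with such a site, 121 had no serum-2i Tdg site and held 127 of the sites in all (0.239%) and at most 2 in a window. Across the 15257 windows with a serum-2i wt site, which share depth and CG content and are not replicates, Spearman's rank correlation between these sites and serum-2i Tdg sites was 0.748.

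At least 1 of the sites lay in 9682 of 20665 autosomal protein-coding genes (46.9%), and at least 1 shared site in 9176 (44.4%). The share grew with span length, from 15.3% of genes under 10 kb through 50.8% (10 to 30 kb) and 71.8% (30 to 100 kb) to 84.0% over 100 kb. A single site was found in 3571 genes and at least 10 in 607. Nearly all of the 9682 genes also held 5caC in Tdg cells at other CGs, and only 158 (1.63%) had no listed site of either Tdg group. Of all 20665 genes, 15878 (76.8%) had a serum-2i Tdg site, and the 9682 genes lean toward long spans. The share of all genes without a site of either Tdg group, the background of the 1.63%, is not given here. A site inside overlapping spans was counted for each of them.

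The genes with the most sites were long and also rich in Tdg sites. Zfhx3, a zinc-finger homeobox factor, held 61 of them among 136 serum-2i wt sites, with 643 sites in serum-2i Tdg cells and 383 in serum Tdg cells. Tenm3, a teneurin adhesion protein of neurons, held 59 of 101 (568 and 118 Tdg sites in serum-2i and serum), and Gse1, which belongs to a complex with histone deacetylases, 54 of 146 (653 and 655). Slc39a11, a zinc transporter, and Wwox, an oxidoreductase with WW domains, held 50 each, of 119 and 99. Gse1 had the lowest share of sites listed in serum-2i wt cells alone among the 12 leading genes, 37.0%.

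The other leading genes held 38 to 43 sites. They were Nav2, a neuron navigator (43 of 87), the kainate-type glutamate receptor genes Grik3 (42 of 69) and Grik4 (38 of 72), Ptprg, a receptor tyrosine phosphatase (41 of 80), and Dst, the cytoskeletal linker dystonin (40 of 85). Arhgap26, a GTPase-activating protein (40 of 67), and Tiam1, which activates the GTPase Rac (39 of 66), complete the 12. The share of serum-2i wt sites listed there alone was highest in Grik3, 60.9%, followed by Arhgap26 (59.7%), Tiam1 (59.1%) and Tenm3 (58.4%). Over all autosomal protein-coding spans it was 48.6% (48.2 to 49.0). The 12 genes were ranked by the number of these sites, which enters the share, so the ranking favours high shares. No interval was computed for a single gene, and no excess over 48.6% can be read from these shares.

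**Figure D5:**
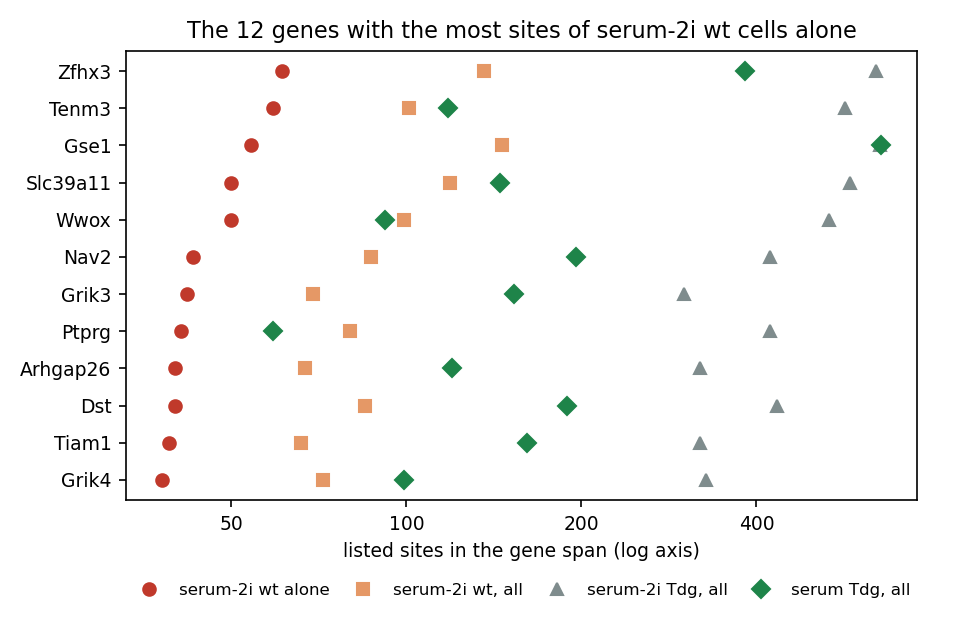
Listed sites in the span of each of the 12 protein-coding genes with the most sites of serum-2i wt cells alone (x axis, number of sites, log axis): sites of serum-2i wt cells alone, all serum-2i wt sites, all serum-2i Tdg sites and all serum Tdg sites. The sites of serum-2i wt cells alone range from 38 in Grik4 to 61 in Zfhx3, and every one of the 12 genes has at least 300 serum-2i Tdg sites.

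Per kb of span, among genes with at least 5 of the sites, short genes led. Dpep3, a membrane dipeptidase, had 5 sites in 5.90 kb (0.848 per kb), Cdk5rap3 6 in 9.11 kb (0.659) and Tmem208, a protein of the endoplasmic reticulum membrane, 6 in 9.14 kb (0.656). Zbtb39, a zinc-finger factor, had 5 in 7.82 kb (0.639). Fasn, the fatty acid synthase, had 12 in 19.2 kb (0.625) and Epx, the eosinophil peroxidase, 7 in 11.5 kb (0.607). Tmem208 was the one among them in which all serum-2i wt sites were listed there alone (6 of 6), with 3 serum-2i Tdg sites and 4 serum Tdg sites at other CGs. When sites with another group listed within 100 bp were left out, Tmem208 kept 1 of its 6, Zbtb39 0 of 5, Cdk5rap3 3 of 6 and Epx 3 of 7, while Dpep3 kept 4 of 5 and Fasn 9 of 12. Serum-2i wt and serum-2i Tdg sites numbered 18 and 17 in Fasn, 6 and 3 in Tmem208 and 8 and 8 in Dpep3. They numbered 8 and 10 in Cdk5rap3, 8 and 19 in Zbtb39 and 9 and 17 in Epx. Over the autosomes serum-2i wt cells listed 110315 sites and serum-2i Tdg cells 683575. The ranking per kb favours genes with many serum-2i wt sites, so these numbers are a description only.

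Of the 158 genes with such a site and no listed site in either Tdg group, none held more than 3. The leading ones were Suv39h2, a histone H3 lysine 9 methyltransferase, Nrbf2, an autophagy regulator, Apobec4, a member of the cytidine deaminase family, and Tbl3, a factor of ribosomal RNA processing. Each had 3 sites, all 3 being the gene's only listed serum-2i wt sites, with summed coverage of 21.5, 19.5, 18.5 and 18.

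Gene lists were read against the 46.9% of all autosomal protein-coding genes that held a site of serum-2i wt cells alone and against the 48.6% of serum-2i wt sites in such genes that were listed there alone. Among the genes of active demethylation and base excision repair, 9 of 20 held 35 sites, led by the dioxygenase genes Tet1 (8 of its 19 serum-2i wt sites), Tet3 (5 of 15) and Tet2 (5 of 8). Among DNA methyltransferases and methylation readers, 12 of 15 held 52 sites, led by the maintenance methyltransferase gene Dnmt1 (11 of 22), Kdm2b, which encodes a CG-binding histone demethylase (10 of 27), and the de novo methyltransferase gene Dnmt3a (10 of 25). The median span of this list was 21.3 kb against 17.5 kb over all genes. Its spans ran from 5.28 kb (Cxxc1) to 118.6 kb (Kdm2b), so no excess over the 46.9% can be read from the median. Of the 122 serum-2i wt sites in these spans, 42.6% (33.7 to 51.9) were listed there alone, and serum-2i Tdg cells listed 647 sites there.

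Of the naive pluripotency genes, 10 of 23 held 60 sites. Nr5a2, an orphan nuclear receptor, had 14 of 19, Stat3, the transcription factor downstream of LIF, 10 of 14, and Lifr, the LIF receptor, 9 of 27. Of the general pluripotency and NODAL genes, 4 of 13 held 14 sites, 8 of them in Sall1, a zinc-finger factor (8 of 10), then 3 in Rif1 (of 4) and 2 in Dnmt3l (of 7). Of the primed genes, 7 of 17 held 43, with Lef1 (14 of 19), Dnmt3a and the epithelial factor Grhl2 (6 of 11) ahead. The shares of these lists with a site were 43.5%, 30.8% and 41.2%, at median spans of 11.9, 6.55 and 9.36 kb. Of all genes of 10 to 30 kb, 50.8% held a site, and of those under 10 kb, 15.3%. Spans differed widely within the lists, and Nr5a2 (117.9 kb), Lef1 (114.1 kb) and Grhl2 (130.7 kb) were far longer than the medians. Of all genes over 100 kb, 84.0% held a site. The class of the median span is therefore not the background of a whole list, and no excess can be read from it. Per kb of span the lists held 0.0875, 0.0939 and 0.0592 sites, against 0.0333 over all genes. In the same spans lay 129, 23 and 80 serum-2i wt sites of any listing, of 68683 over all genes. Serum-2i Tdg sites numbered 798, 124 and 496, of 393673 over all genes. The higher density is thus not shown to be particular to the sites of serum-2i wt cells alone.

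The WNT and FGF-ERK pathways contain the targets of the inhibitors in serum-2i. Among WNT genes, 18 of 25 (72.0%) held 113, led by the transcription factor genes Tcf7l2 (19 of 42) and Lef1 and the co-receptor gene Lrp5 (13 of 21). Their median span was 43.9 kb, and of all genes of 30 to 100 kb, 71.8% held a site. Spans in the list ran from 3.62 kb (Dkk1) to 191.9 kb (Tcf7l2), so that class is not the background of the whole list. Among FGF-ERK genes, 20 of 27 (74.1%) held 67, among them the adaptor gene Grb2 (10 of 17) and the receptor gene Fgfr2 (9 of 17). Their median span was 15.6 kb, and of all genes of 10 to 30 kb, 50.8% held a site. Here too spans varied, from 3.385 kb (Fos) to 122.4 kb (Braf), so no excess over the background can be read from this class.

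Of 40 lineage regulators with bivalent promoters, 14 (35.0%) held 33 of the sites (0.0432 per kb of span), led by the paired-box genes Pax7 (6 of 15) and Pax2 (6 of 11) and by the T-box gene Tbx5 (4 of 10), although the list had 2200 serum Tdg sites and 702 serum-2i Tdg sites. Their median span was 5.71 kb, and 15.3% of all genes under 10 kb held a site. Pax7, Pax2 and Tbx5, however, had spans of 96.5, 91.7 and 88.7 kb. Of all genes of 30 to 100 kb, 71.8% held a site, so the class of the median span is not the background of this list. Over all genes there were 0.0333 sites per kb. Of the germline genes silenced by methylation, 7 of 19 held 13, led by Mov10l1, an RNA helicase of the piRNA pathway, with 4 of 4. Their median span was 39.9 kb, and they held 0.016 sites per kb. Of the imprinted genes, 13 of 26 held 31, led by the potassium channel gene Kcnq1 (5 of 18), Meg3 (4 of 8) and Grb10 (4 of 5). Their median span was 21.3 kb, with 0.019 sites per kb. Housekeeping genes had 4 of 18 (22.2%) with 8 sites in all, 4 of them in Ldha, which encodes lactate dehydrogenase. Their median span was 5.13 kb, with 0.0415 sites per kb, and 15.3% of all genes under 10 kb held a site. Spans in this list reached 32.7 kb (Ywhaz), so neither a lack nor an excess can be read from that class. Of the long neural genes, 19 of 20 held 142, led by the teneurins Tenm3 (59 of 101) and Tenm4 (27 of 82) and Magi2, a synaptic scaffold (10 of 15). Their median span was 1145 kb, and 84.0% of all genes over 100 kb held a site. Per kb of span they held 0.00604 sites, below the 0.0333 over all genes. In all 12 lists the exact interval of the share of serum-2i wt sites listed there alone included 48.6%; the shares ran from 41.3% (imprinted genes) to 60.9% (general pluripotency and NODAL).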

How the data were processed

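Coverage of 5caC at CG sites came from the authors' deposited table, a signal that is never negative, with chromosome, position, group and coverage, per the file header. The submitters' processing notes name mm10 as the build. The aligner, the site caller, any scaling, the rule for listing a site and the way the control entered the table are not stated in the material at hand. Positions were found to be counted from 0: all 14083 listed autosomal positions in the promoter windows read CG that way and none of 14073 when counted from 1. They are printed counted from 1, as the pair of bases of the CG. Position, listing pattern and coverage were joined to RefSeq gene spans (20665 autosomal protein-coding genes) and 31396 promoter windows of GRCm38.p6 with Python 3.11.15, pandas 2.3.3, NumPy 2.4.6 and SciPy 1.17.1. Of the protein-coding genes, 16457 had a promoter window. The autosomal length (2441.9 Mb) ran from the first to the last gene or listed site of each chromosome. A gene's length class was taken from the longest span over a site.

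With 1 value per group no model was fitted. Each counting step was tested on simulated data (4000 sites, 300 genes) and gave the planted answers. Genes named are the 12 protein-coding genes with the most sites, the 6 with the most per kb among those with at least 5, the 4 leading genes without a Tdg site and up to 3 per list (1 of these is not reported here); sites named are the 8 with the highest coverage, and runs and windows the 5 with the most sites. Promoters considered for printing were those of genes listed on 1 strand and not on chromosome 18. Predicted symbols were left out of the sets ranked per kb and without a Tdg site. The sites and the gene lists were chosen with earlier results of these data known. All 272 list entries were found, 1 by an older symbol, and 9 lie on chromosome X, which was left out.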

Additional observations from a re-analysis of the deposited data

How the results depend on the processing

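Of the 53031 sites, 37147 had coverage of at least 6, 8736 of at least 10, and 39804 had no other group listed within 100 bp; counting a neighbour at 1 bp as shared changed nothing, and chromosome X added 258 sites. The share of serum-2i wt sites listed alone went from 48.1% to 45.4% at a minimum of 6, 35.7% at 10 and 36.1% without neighbours within 100 bp. The share in protein-coding spans was 63.9% at a minimum of 10 and 61.5% without such neighbours. The share near a span end was 4.84% without such neighbours, 2.42% within 500 bp and 10.2% within 2 kb. The share with another such site within 1 kb fell from 17.9% to 14.0% (minimum 6), 4.18% (minimum 10) and 13.0% (no neighbours), as fewer sites entered. The share within 1 kb of a serum-2i Tdg site was 65.4% at a minimum of 10 and 53.6% without neighbours within 100 bp. Protein-coding genes with a site numbered 3633 at a minimum of 10, and 8368 to 10622 under the other settings. Chosen after the values were seen, a minimum of 10 gave GCG at 58.1% of the sites and 18.6% of shared sites. At a minimum of 6, 7 of 22 named genes lost more than 1.5 times in sites (without neighbours within 100 bp, 4 of 22, all among the 6 ranked per kb), as did 1 of 12 lists in genes with a site (germline, 7 to 4).

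No paired analysis was possible because the table has 1 value per group and none per replicate; leaving out a replicate was not possible for the same reason. Coverage near the minimum of 4 limits every single site.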
